A study of Mus musculus with 60 samples.

Results

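Complexes II, III and IV of the mitochondrial respiratory chain carry heme, and the 36 nuclear genes described here encode subunits of these complexes, cytochrome c, and factors that assemble complex IV. The genes were taken from a list by function. No measured value entered the rule, but the list was drawn up with results of these data known. All 36 were found by symbol in each of the 5 tables of the study, which hold 18746 to 20180 genes, and all 36 passed the filter on low values in each table. By role, 3 encode complex II subunits (Sdhb, Sdhc and Sdhd), 9 complex III subunits, 1 cytochrome c (Cycs) and 11 complex IV subunits, which makes 24 structural genes. The other 12 serve the assembly of complex IV: 2 make heme A (Cox10 and Cox15), 5 deliver copper (Cox11, Cox17, Cox19, Sco1 and Sco2) and 5 have other roles (Cox14, Cox16, Cox18, Cox20 and Surf1).

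Complex II passes electrons from succinate to ubiquinone and holds a heme b between its membrane subunits Sdhc and Sdhd, while Sdhb carries iron-sulfur clusters. Complex III passes electrons on to cytochrome c, a small soluble protein with a covalently bound heme. The complex holds the hemes of the mitochondrially encoded cytochrome b, the iron-sulfur protein Uqcrfs1 and the heme c1 of Cyc1. Complex IV reduces oxygen at a site built from heme A and copper in a mitochondrially encoded subunit. Cox10 and Cox15 convert ordinary heme into heme A, and the copper is handed over by Cox17, Cox11, Sco1 and Sco2. Brown fat is rich in mitochondria, and its heat production depends on electron flow through this chain when Ucp1 uncouples it from ATP synthesis.

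RNA was sequenced in 60 mouse libraries. In the first experiment, wild-type cells of 3 kinds were studied: B9, an immortalized line of brown preadipocytes, and pBAT and pWAT, primary brown and white preadipocytes of pups at p0 to p1. They were harvested on days 0, 2, 4 and 6 of differentiation, with 3 libraries per cell type and day. In the second, wild-type pBAT cells were differentiated with Vehicle, with 1 mM SA (succinylacetone, an inhibitor of the heme synthesis enzyme Alad), with 10 µM HA (heme-arginate, a source of heme), or with both (HASA), with 4 libraries each. The third compared brown adipose tissue of 4 WT females with that of 4 BAKO females, in which Alas1, the first enzyme of heme synthesis, was deleted in brown adipocytes. The age of these females, the Cre driver and the deleted stretch of Alas1 were not given in the sources used here. The tissue libraries came from separate animals. The labels do not say whether the libraries of a cell group came from separate cultures, so their p-values measure the spread between these libraries, which may be technical.

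The values are on a log2 scale, so a difference of 1 is a 2-fold difference. Read depth per library is unknown from them, and the linear values summed to 18 to 29.9 M per library. Each cell type of the first experiment and each of the other 2 experiments was normalized in its own table, and tests were made within a table with limma. A gene was called changed at a Benjamini-Hochberg adjusted p under 0.05 over all genes tested in the table, and errors are standard errors (SE) or 95% confidence intervals (CI). Markers for the labelled cell types were present. Ucp1, the defining gene of brown fat, was listed at -0.957 to -0.675 in all libraries of the white pWAT cells. The summed list of 7 brown adipocyte markers nevertheless rose in pWAT libraries, from 7.47-7.95 on day 0 to 11.46-11.87 on day 6. On day 6 it stood at 12.27-12.31 in B9 and at 12.98-13.05 in pBAT libraries, which were normalized apart. The summed markers of macrophages, on the log2 scale, rose between day 0 and day 6 from 11.44-11.54 to 13.93-14.25 in pBAT libraries and from 10.76-10.84 to 14.5-14.6 in pWAT libraries. In these bulk samples, fewer cells of a type and less RNA per cell cannot be told apart.

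Promoters of 27 of the 36 genes were available from RefSeq (build GRCm38.p6; 250 bases before to 50 after the start). They were searched on both strands for 3 motifs of factors known to act on nuclear respiratory genes: CCGGAAG (ETS family, which includes GABP), CGCATGCG (the core of the NRF1 motif) and TCAAGGTCA (estrogen-related receptor). In the promoters shown, no motif overlapped another. The ETS letters were found in 14 of the 27 promoters (51.9%), against 9.93% of 27025 genes with a promoter in the table and 20.22% of the 9869 of them tested in the second experiment. The NRF1 core was found in 4 (14.8%; Cox6a1, Cycs, Uqcr11 and Uqcrc1), against 2.07% and 4.39%, and the receptor motif in 1 (3.7%, Sdhd), against 0.47% and 0.29%. Both the NRF1 core and the ETS letters were found in Cox6a1 and Uqcr11 (7.4%, against 0.43% and 1.05%). A match is a description of the letters and not a binding site. The stretches from 100 bases before to 10 bases after the start are shown for 4 genes that the results return to: Cox10 for heme A synthesis, Cycs for the soluble heme carrier, Sdhd for the heme b site, and Uqcr11 because it holds both motifs. All lie on the minus strand, and capitals mark CCGGAAG (or CTTCCGG, the same letters on the other strand) and CGCATGCG.
Cox10 (chr11:64079463-64079572): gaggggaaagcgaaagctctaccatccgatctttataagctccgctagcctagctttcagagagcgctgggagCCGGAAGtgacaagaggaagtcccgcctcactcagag
Cycs (chr6:50566560-50566669): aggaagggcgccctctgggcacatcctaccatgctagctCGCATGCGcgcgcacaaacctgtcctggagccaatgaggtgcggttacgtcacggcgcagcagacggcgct
Sdhd (chr9:50603840-50603949): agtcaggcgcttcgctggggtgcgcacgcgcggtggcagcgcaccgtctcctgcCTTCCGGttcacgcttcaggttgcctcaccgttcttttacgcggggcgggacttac
Uqcr11 (chr10:80406812-80406921): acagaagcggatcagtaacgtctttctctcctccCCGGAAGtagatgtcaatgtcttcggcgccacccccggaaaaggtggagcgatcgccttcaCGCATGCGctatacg
The ETS letters began 27 bases before the start in Cox10, 46 in Sdhd and 66 in Uqcr11. The NRF1 core began 61 bases before the start in Cycs and 5 in Uqcr11. The receptor motif of Sdhd lay 36 bases after the start, outside the stretch shown.

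The first experiment asked how the genes move as preadipocytes become fat cells. By day 6 the 24 structural genes had risen from day 0 in B9, pBAT and pWAT cells alike, with 24 of 24 called higher in each and median log2 changes of 1.81, 2.14 and 1.38. Over all 36 genes, 33 were called higher and 2 lower in B9 cells, 35 and 1 in pBAT cells, and 31 and 1 in pWAT cells. The background was 40.5% of all genes called higher and 38.8% lower in B9 cells, 38.3% and 39.2% in pBAT cells, and 35.3% and 35.5% in pWAT cells. The median change of the 36 genes was 1.55, 1.93 and 1.17, against 0.03, -0.0047 and 0.0037 over all genes tested. The assembly genes had smaller medians of 0.37, 1.12 and 0.70, and 9, 11 and 7 of the 12 were called higher. The 30 genes called higher in all 3 cell types leave out only Cox10, Cox16, Cox18, Cox20, Sco1 and Sco2, all of them assembly genes.

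**Figure D1:**
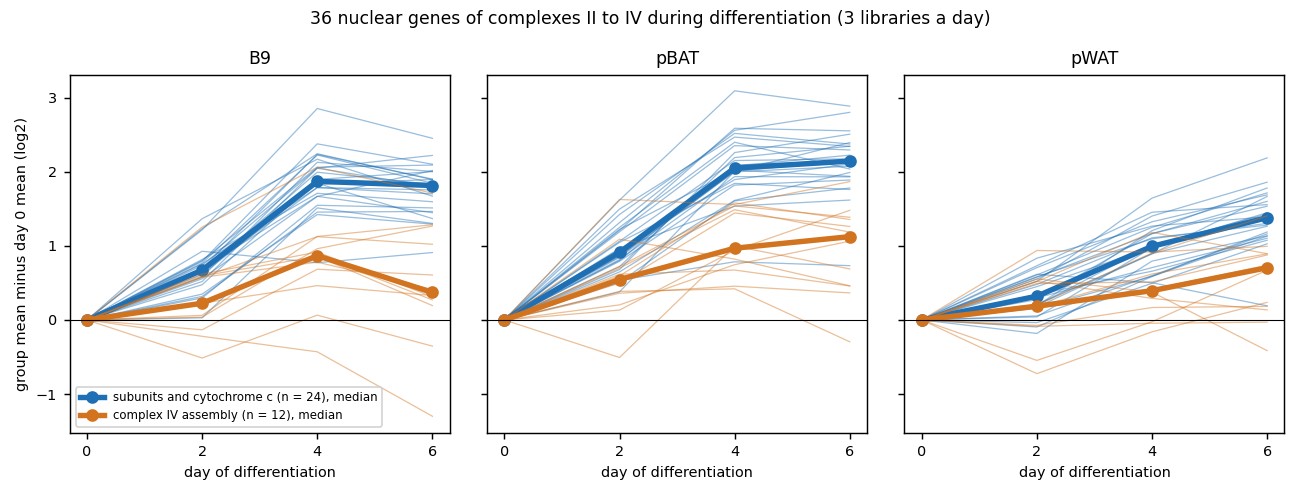
Mean log2 change from day 0 (vertical axis) of each of the 36 genes against the day of differentiation (horizontal axis) in B9, pBAT and pWAT cells, with 3 libraries per day. Blue lines are structural and orange lines assembly genes, and thick lines their medians. The structural genes lie above 0 by day 6 in each panel (medians 1.81, 2.14 and 1.38), and Sco2 lies below 0, at -1.30, -0.29 and -0.41.

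Cycs, the soluble electron carrier, rose in all 3 cell types. In B9 cells its log2 values were 10.26, 10.09 and 9.99 on day 0, 11.24, 11.35 and 11.39 on day 2, 13.10, 13.03 and 12.77 on day 4, and 12.45, 12.50 and 12.74 on day 6. In pBAT cells they were 9.59, 9.56 and 9.38 on day 0, 10.80, 11.04 and 10.96 on day 2, 12.04, 12.13 and 11.91 on day 4, and 11.83, 11.84 and 11.99 on day 6. In pWAT cells they were 9.49, 9.42 and 9.90 on day 0, 9.86, 9.89 and 9.69 on day 2, 10.50, 10.45 and 10.54 on day 4, and 11.05, 11.27 and 11.48 on day 6. No day 6 library overlapped a day 0 library. The highest value fell on day 4 in B9 and pBAT cells, where pBAT days 4 and 6 overlapped, and on day 6 in pWAT cells. The change to day 6 was 2.45 (SE 0.095, adjusted p = 6.4e-12) in B9 cells, 2.37 in pBAT cells and 1.67 in pWAT cells.

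Cyc1, the complex III subunit that holds heme c1, followed a similar course. The B9 libraries were at 11.42, 11.55 and 11.50 on day 0 and at 13.31, 13.36 and 13.34 on day 6. The pBAT libraries went from 10.46, 10.30 and 10.47 to 13.23, 13.18 and 13.23. The pWAT libraries went from 10.57, 10.53 and 10.56 to 12.44, 12.53 and 12.27. The groups did not overlap, and the changes were 1.84, 2.80 (SE 0.055, adjusted p = 1.5e-15) and 1.86. In pBAT and pWAT cells only Uqcrfs1 rose more among the 36 genes. This Rieske iron-sulfur subunit of complex III stood at 9.73, 9.67 and 9.72 in pBAT cells on day 0 and at 12.59, 12.50 and 12.70 on day 6. Its change was 1.90 in B9, 2.88 in pBAT and 2.19 in pWAT cells. All 9 complex III genes were called higher in each cell type (medians 1.84, 2.29 and 1.56).

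The complex II genes rose together, with medians of 1.59, 2.34 and 1.45. Sdhc changed by 1.59, 1.93 and 1.30 and its heme b partner Sdhd by 1.45, 2.34 and 1.69, in the order B9, pBAT, pWAT. Sdhb was among the largest rises in pBAT cells, at 2.51 by day 6. All 11 complex IV genes were called higher as well, with medians of 1.75, 2.10 and 1.26. The B9 rises were led by Cycs, Uqcrq (2.22), Uqcrc2 (2.10) and Cox4i1 (2.09), whereas those of pBAT cells were led by Uqcrfs1, Cyc1, Uqcrc2 (2.55) and Sdhb, and those of pWAT cells by Uqcrfs1, Cyc1, Uqcrc2 (1.78) and Uqcr10 (1.71). Uqcrc2, a core subunit of complex III, was thus among the 4 largest rises in each.

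The heme A pathway moved less evenly. Cox10, the heme A farnesyltransferase, stood in B9 cells at 9.28, 9.21 and 9.24 on day 0, 10.06, 10.06 and 10.25 on day 4, and 9.53, 9.39 and 9.63 on day 6. In pBAT cells it went from 8.57, 8.65 and 8.69 through 10.20, 10.07 and 10.10 on day 4 to 9.80, 9.75 and 9.90 on day 6. In pWAT cells it went from 9.17, 8.92 and 8.94 on day 0 to 9.26, 9.24 and 9.09 on day 6, so the days overlapped. Cox10 rose by 0.27 (adjusted p = 0.0045) in B9 cells and by 1.19 in pBAT cells, and its change of 0.18 in pWAT cells was not called (adjusted p = 0.115). Cox15, which makes heme A from the product of Cox10, was called higher in each cell type, by 1.02, 1.39 and 0.89.

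Sco2, a copper chaperone of complex IV, was lower on day 6 than on day 0 in all 3 cell types, after an early rise in the primary cells. Its B9 libraries were at 9.08, 9.21 and 9.07 on day 0, 9.00, 8.74 and 8.97 on day 2, 8.68, 8.59 and 8.81 on day 4, and 7.79, 7.92 and 7.75 on day 6. The pBAT libraries went from 8.79, 8.66 and 8.72 on day 0 through 9.15, 9.05 and 9.11 on day 2 and 9.22, 9.15 and 9.06 on day 4 to 8.34, 8.41 and 8.53 on day 6. The pWAT libraries went from 8.70, 8.56 and 8.37 through 9.24, 9.07 and 8.98 on day 2 and 8.83, 8.89 and 9.04 on day 4 to 8.31, 8.09 and 7.99. From day 0 to day 2 it was called higher in pBAT cells (0.39, adjusted p = 0.00089) and in pWAT cells (0.55, adjusted p = 0.0015). Day 6 lay wholly below day 0 in each cell type, with changes from day 0 of -1.30 (SE 0.095, adjusted p = 9.4e-09), -0.29 and -0.41. The exons of Sco2 overlap those of Tymp on the same strand and of Ncaph2 on the other, and the strand setting of the counting is not stated, so reads of these genes may be shared. Sco1, the related chaperone, changed by 0.31 and 0.46 in B9 and pBAT cells and by 0.14 in pWAT cells, where it was not called. Cox18, which inserts a complex IV subunit into the membrane, was the other gene called lower in B9 cells, at -0.35, and was called higher in pBAT cells, at 0.36.

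Genes of the same machinery outside the 36 rose too. Of 29 to 30 further genes for complexes II to IV that were tested, 25, 27 and 22 were called higher and 0, 1 and 4 lower in B9, pBAT and pWAT cells by day 6. All 36 nuclear complex I subunits on the list were called higher in each, with medians of 1.50, 1.92 and 1.08, and 12, 13 and 12 of 14 ATP synthase subunits were. Of the 4 mitochondrially encoded genes of complexes III and IV, all 4 were called higher in pBAT and pWAT cells. In B9 cells only mt-Co1 was (1.20), and mt-Cytb, which encodes the cytochrome b of complex III, was called lower at -0.27. The summed adipocyte markers rose over the same days, from 8.7-9.14 to 16.85-17.0 in B9 libraries, and their part in the result was not tested.

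Each step of the time course was tested as well. From day 0 to day 2, 29 of the 36 genes were called higher and 1 lower in B9 cells (median 0.60), where 35.1% of all genes were called higher and 34% lower. In pBAT cells 33 were called higher and 1 lower (median 0.81; background 36.7% and 29.7%). In pWAT cells 18 were called higher and 3 lower (median 0.29; background 27.1% and 25.5%). Cox14, a complex IV assembly factor, was among the 2 largest early rises in each cell type, at 1.25, 1.63 and 0.94. Its pBAT libraries went from 8.57, 8.43 and 8.30 on day 0 to 10.02, 10.02 and 10.15 on day 2 and stood at 10.30, 10.27 and 10.34 on day 6, so most of its rise lay in the first step. Other large early rises were Uqcrh (1.37), Uqcr11 (1.23) and Cycs (1.22) in B9 cells, Uqcrfs1 (1.62), Sdhd (1.50) and Cycs (1.42) in pBAT cells, and Uqcrh (0.83), Uqcr11 (0.73) and Sdhd (0.71) in pWAT cells.

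Among the other heme genes, Sdhc rose early by 0.82, 0.81 and 0.58 in B9, pBAT and pWAT cells, Cyc1 by 0.77, 1.31 and 0.55, and Sdhd by 0.69 in B9 cells. Cox15 rose by 0.58 and 0.72 in the brown cells, and its change of 0.52 in pWAT cells was not called. Cox10 rose by 0.70 in pBAT cells and by 0.22 in B9 cells, and the latter call was lost without 1 day 2 library. In pWAT cells the early changes of Cycs (0.21) and Cox10 (-0.07) were not called. Cox20, which helps a copper-bearing subunit of complex IV to mature, fell early in both primary cell types, by 0.51 in pBAT and 0.72 in pWAT cells. Its pBAT libraries dipped from 7.61, 7.65 and 7.40 on day 0 to 7.15, 6.92 and 7.06 on day 2, and then stood at 8.47, 8.55 and 8.62 on day 4. Cox17 (-0.55) and Uqcrc1 (-0.18) also fell early in pWAT cells, and Cox18 (-0.51) in B9 cells.

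Between day 2 and day 4 the rise went on in each cell type. In B9 cells 31 genes were called higher and 1 lower (median 1.07; background 30.6% and 28.7%), in pBAT cells 31 and 1 (median 1.01; background 32.2% and 31.6%), and in pWAT cells 28 and 0 (median 0.55; background 25.1% and 22.8%). The 4 largest rises were Cycs (1.64), Uqcrc2 (1.59), Cox5b (1.55) and Uqcrfs1 (1.54) in B9 cells. In pBAT cells they were Cox6a1 (1.63), Sdhb (1.58), Cox20 (1.50) and Uqcrfs1 (1.48), and in pWAT cells Uqcrfs1 (1.12), Uqcrc2 (1.01), Uqcrc1 (0.98) and Sdhb (0.93). Cyc1 rose by 1.46, 1.25 and 0.85, Sdhc by 0.89, 1.12 and 0.51, Sdhd by 0.98, 0.97 and 0.62, and Cox15 by 0.55, 0.82 and 0.66. Cycs rose by 1.09 in pBAT and 0.68 in pWAT cells. Cox10 rose by 0.65 in B9 and 0.79 in pBAT cells, and its change of 0.24 in pWAT cells was not called. The genes called lower were Cox7a2l (-0.15) in B9 cells and Sco1 (-0.27) in pBAT cells.

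In the last step, from day 4 to day 6, the genes rose on balance in pWAT cells and not in the brown cells. In B9 cells 4 genes were called higher and 18 lower (median -0.15; background 26.6% and 26.8%). In pBAT cells 8 were called higher and 5 lower (median -0.02; background 19.8% and 23.2%), and in pWAT cells 22 and 2 (median 0.38; background 16.1% and 15.4%). The highest of the 4 day means fell on day 4 for 26 genes and on day 6 for 8 in B9 cells, on day 4 for 18 and on day 6 for 17 in pBAT cells, and on day 6 for 31 in pWAT cells. Among the 24 structural genes it fell on day 6 for 6, 14 and 23. Since the 3 tables were normalized apart, this difference between cell types was not tested. Sco2 had the largest fall in all 3, at -0.87, -0.71 and -0.79. The B9 falls were otherwise led by Cox16 (-0.66), Cox10 (-0.61) and Sco1 (-0.60), and Cycs (-0.40), Cyc1 (-0.38) and Sdhd (-0.22) were called lower too. The late B9 rises were those of Cox6a1 (0.35), Cox17 (0.31), Uqcrq (0.17) and Cox7a2l (0.14), and the calls of Uqcrq and Cox7a2l were lost without 1 library.

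In pBAT cells the late rises were led by Cox17 (0.54), Cox6a1 (0.39), Uqcrb (0.38) and Surf1 (0.32), and Cyc1 rose by 0.24. Falls there were Sco2, Uqcr11 (-0.36), Sco1 (-0.36), Cox20 (-0.31) and Cox10 (-0.30). In pWAT cells the rises were led by Cycs (0.78), Cox17 (0.70), Uqcrq (0.60) and Uqcrc2 (0.58), and Cyc1 (0.46), Sdhd (0.36) and Sdhc (0.21) rose as well. Cox17, the copper chaperone that supplies Sco1, Sco2 and Cox11, was thus called higher in this step in each cell type. Across the 36 genes the day 6 change correlated between tables with Pearson's r of 0.861 for B9 and pBAT cells, 0.788 for B9 and pWAT cells and 0.907 for pBAT and pWAT cells, beside 0.80, 0.785 and 0.888 over all genes tested in both. These are descriptions across genes, which are not independent replicates.

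Several subunits of complex IV have a form restricted to certain tissues beside the widely used one among the 36 genes. The brown-fat and muscle form Cox7a1 rose in B9 cells from 3.08, 3.30 and 3.60 on day 0 to 9.81, 9.78 and 9.93 on day 6, and in pBAT cells from 3.43, 3.89 and 3.54 to 10.81, 10.92 and 11.07. In pWAT cells it rose from 4.16, 3.97 and 3.93 to 8.76, 8.76 and 8.86. These changes of 6.51, 7.31 and 4.77 stand beside 1.46, 1.89 and 1.16 for Cox7a2, the widely used form. Cox8b rose by 3.75, 6.85 and 4.61, beside 1.90, 2.22 and 1.60 for Cox8a. The form Cox6a2 rose by 3.92 in B9 cells, changed by 0.13 in pBAT cells, where it was not called, and fell by 0.42 in pWAT cells. Cox4i2 rose by 2.39 in pBAT and 1.19 in pWAT cells and was below the filter in B9 cells. Low values may vary less on this scale, so the rises of the forms that began low may be understated, which was not tested.

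**Figure D2:**
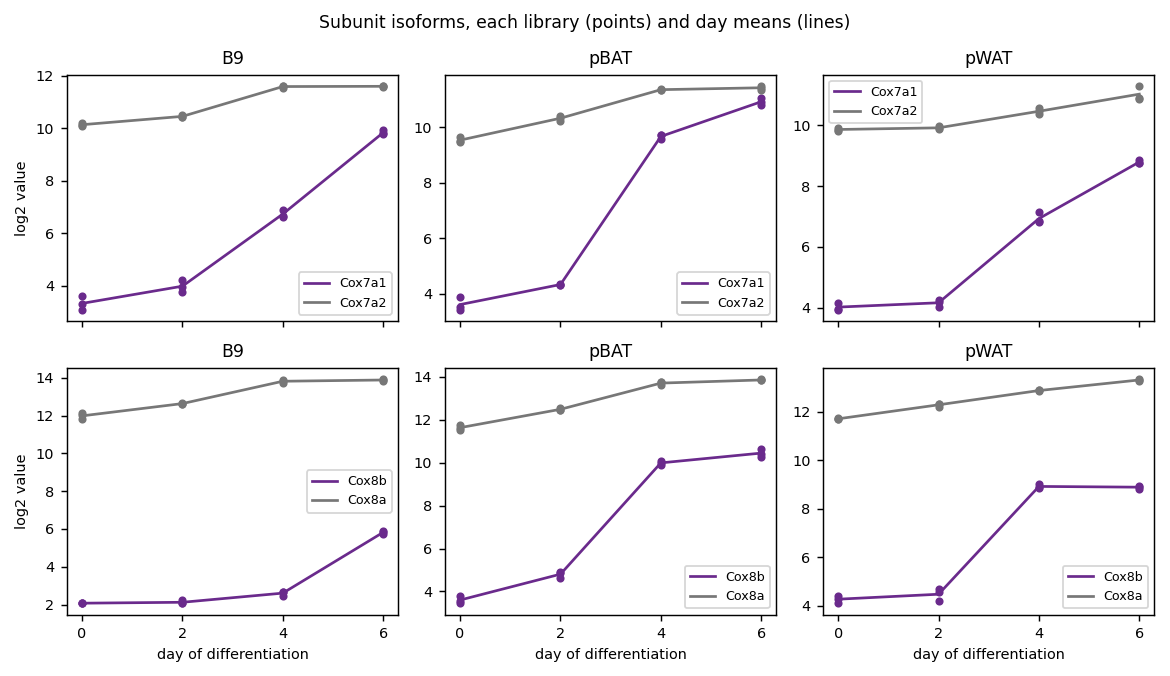
Log2 values (vertical axis) of Cox7a1 and Cox7a2 (top) and of Cox8b and Cox8a (bottom) against the day of differentiation in B9, pBAT and pWAT cells; points are single libraries and lines join the day means. Cox7a1 in pBAT cells climbed from 3.43-3.89 on day 0 to 10.81-11.07 on day 6, whereas Cox8b in B9 cells reached 5.74-5.90.

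The second experiment asked what happens to these genes when heme synthesis is inhibited or heme is supplied. In cells given SA, 23 of the 36 genes were called lower than with Vehicle and 0 higher, with a median change of -0.14, against 20% of all genes called higher, 21.4% lower and a median of 0.0036. Structural genes made up 19 of the 23, spread over complex II (3 of 3), complex III (6 of 9), complex IV (9 of 11) and Cycs. The other 4 were Cox10 and 3 of the 5 copper genes. The largest change, that of Cox5a, was a 1.35-fold difference.

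Cox5a, a complex IV subunit, stood at 12.89 in each of the 4 Vehicle libraries, at 12.45, 12.38, 12.58 and 12.43 with SA, and at 12.29, 12.36, 12.29 and 12.31 with HASA. Cycs stood at 12.07, 12.15, 12.16 and 12.14 with Vehicle, at 11.76, 11.86, 11.70 and 11.73 with SA, and at 11.85, 11.83, 11.81 and 11.73 with HASA. Cyc1 stood at 13.72, 13.77, 13.75 and 13.78 with Vehicle, at 13.50, 13.40, 13.28 and 13.48 with SA, and at 13.37, 13.40, 13.28 and 13.29 with HASA. For these 3 genes no SA library overlapped a Vehicle library. The changes with SA were -0.43 (SE 0.039, adjusted p = 8.9e-08) for Cox5a, -0.36 (SE 0.041, adjusted p = 1.5e-06) for Cycs and -0.34 (SE 0.044, adjusted p = 9.3e-06) for Cyc1. Cox17 (-0.36) and Uqcrb (-0.35), a small complex III subunit, fell by like amounts.

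The 2 membrane subunits that hold the heme b of complex II fell less. Sdhd stood at 12.74, 12.81, 12.74 and 12.78 with Vehicle and at 12.66, 12.61, 12.56 and 12.60 with SA, a change of -0.16 (adjusted p = 0.00035). Sdhc stood at 12.81, 12.86, 12.91 and 12.87 with Vehicle and at 12.69, 12.73, 12.59 and 12.78 with SA, also a change of -0.16 (adjusted p = 0.003). Neither group pair overlapped. Of the 2 genes of heme A synthesis, 1 was called, and the difference between their changes was not tested. Cox10 stood at 9.03, 9.14, 9.29 and 9.00 with Vehicle and at 8.76, 8.88, 8.91 and 8.93 with SA, and fell by 0.24 (SE 0.071, adjusted p = 0.011). Cox15 stood at 10.24, 10.43, 10.37 and 10.19 with Vehicle and at 10.58, 10.39, 10.19 and 10.25 with SA, so the groups overlapped and its change of 0.05 (CI -0.11 to 0.20) was not called. The other genes not called were Uqcrc2, Uqcrq, Uqcr11, Cox6c, Cox8a, Sco1, Sco2, Cox14, Cox16, Cox18, Cox20 and Surf1, so all 5 genes of the remaining assembly group were among them.

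**Figure D3:**
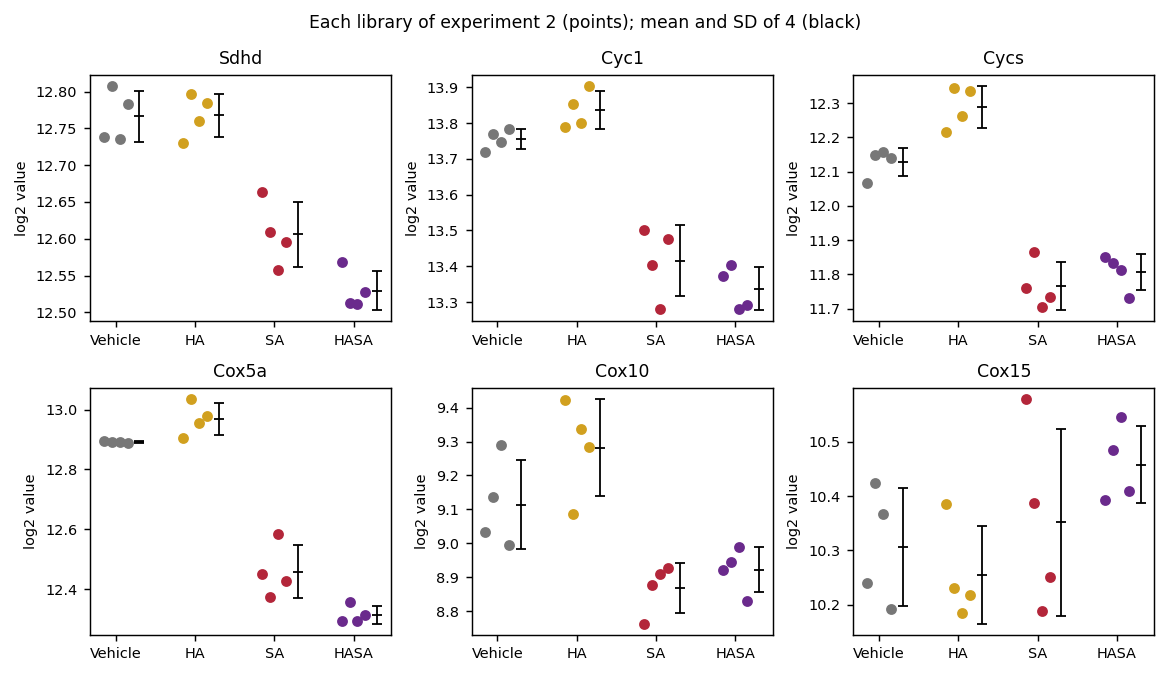
Log2 values (vertical axis, not starting at 0) of Sdhd, Cyc1, Cycs, Cox5a, Cox10 and Cox15 in each library given Vehicle, HA, SA or HASA; black marks are the mean and SD of 4 libraries. The SA and HASA points lie below the Vehicle points in the first 5 genes and overlap them in Cox15.

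Genes around the 36 also moved. With SA, 26 of 36 nuclear complex I subunits were called lower and 0 higher (median -0.25). Most of the 14 ATP synthase subunits were called lower too, and 1 was called higher. Of the 30 further genes for complexes II to IV, 17 were called lower and 1 higher. The mitochondrially encoded mt-Co1 was called higher, by 0.45, and so was mt-Cytb, by 0.22. Marker levels differed between the same libraries. Summed brown adipocyte markers were 12.92 to 12.95 with Vehicle, 12.36 to 12.45 with SA and 12.09 to 12.32 with HASA. Summed fibroblast markers were 17.18 to 17.3 with Vehicle and 16.18 to 16.41 with SA, with 6 of 6 called lower, and macrophage markers 12.11 to 12.39 and 11.72 to 11.8, with 7 of 10 called lower. Adipocyte markers were 17.12 to 17.2 and 17.22 to 17.32, with 4 of 5 called higher. Smooth muscle and pericyte markers were 12.8 to 13.46 with Vehicle, 12.17 to 12.32 with SA and 12.08 to 12.34 with HASA. Skeletal muscle markers were 8.66 to 8.8 with Vehicle, 9.14 to 9.46 with SA and 8.32 to 8.5 with HASA. The part of these markers in the result was not tested.

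The paired forms of complex IV subunits were compared under SA too. Cox8b stood at 9.88, 9.96, 10.04 and 10.16 with Vehicle, at 8.17, 8.17, 8.19 and 8.22 with SA, and at 8.28, 8.32, 8.36 and 8.25 with HASA. Its change with SA was -1.82 (adjusted p = 3.6e-13), whereas Cox8a was not called. The difference Cox8b minus Cox8a lay between -5.65 and -5.58 in the SA libraries and between -3.96 and -3.67 in the Vehicle libraries, and changed by -1.77. In an exact two-sided permutation test this gave p = 0.0286, the smallest that 4 against 4 libraries allow, and an adjusted p of 0.152 over the 8 isoform tests made. Cox7a1 fell by 0.28 with SA. Its difference from Cox7a2 changed by -0.13 (exact permutation p = 0.0571, adjusted p = 0.152). No isoform difference passed the threshold after adjustment. A lone difference at the smallest possible p could not pass it over 8 tests, so the adjusted values cannot decide on a single pair. The other differences with SA were 0.03 for Cox6a2 minus Cox6a1 (exact permutation p = 0.4) and -0.0034 for Cox4i2 minus Cox4i1 (p = 1).

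With HA, 5 of the 36 were called higher than with Vehicle and 0 lower (median 0.06), where 4.88% of all genes were called higher and 4.09% lower. They were Cycs (0.16, adjusted p = 0.02), Cox8a (0.15), Cox5b (0.15), Cox6a1 (0.13) and Cox4i1 (0.12). Cycs stood at 12.21, 12.34, 12.26 and 12.34 with HA and Cox5b, which binds zinc in complex IV, at 13.29, 13.37, 13.30 and 13.34 against 13.16, 13.22, 13.17 and 13.16 with Vehicle. Both lay above every Vehicle library. The call of Cycs was lost without 1 library. The changes of Sdhc (0.01), Sdhd (0.0011), Cyc1 (0.08), Cox10 (0.17) and Cox15 (-0.05) were not called. Summed brown adipocyte markers were 13.13 to 13.24 with HA against 12.92 to 12.95 with Vehicle, with 1 of 7 called higher and 2 lower, and smooth muscle and pericyte markers 12.41 to 12.59 against 12.8 to 13.46, with 3 of the 4 tested called lower. Their part in the result was not tested. The mean with HA was the highest of the 4 treatments for 27 of the 36 genes, and the share over all genes was not counted. The count of 5 fell to 2 without HA library 2 or without Vehicle library 1 and to 3 without HA library 4, and quantile normalization left 2 called higher and 1 lower.

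With HA added to SA, the genes called lower with SA alone were still called lower than with Vehicle, except for Cox19. Compared with SA alone, 11 genes were called lower with HASA and 0 higher (median -0.08), against 12.3% of all genes called lower and 12.4% higher. All 11 were structural, and 6 belonged to complex IV. The largest falls were those of Cox7a2l (-0.19), a factor that joins complexes III and IV into supercomplexes, Uqcrh (-0.19), Cox7a2 (-0.17) and Uqcrb (-0.15). Cox7a2l stood at 12.49, 12.58, 12.50 and 12.55 with Vehicle, at 12.23, 12.31, 12.28 and 12.25 with SA, and at 12.10, 12.12, 12.06 and 12.01 with HASA. Its 3 groups did not overlap. None of the heme genes was called in this comparison: the changes were 0.04 for Cycs, -0.08 for Cyc1, -0.02 for Sdhc, -0.08 for Sdhd, 0.05 for Cox10 and 0.11 for Cox15. Alas1 was 1.29 higher with SA than with Vehicle and 1.24 lower with HASA than with SA on the log2 scale. Summed macrophage markers were 12.36 to 12.52 and fibroblast markers 16.61 to 16.79 with HASA, and 10 of 10 and 5 of 6 of them were called higher than with SA. Their part in the result was not tested.

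Against Vehicle, HASA lowered 28 of the 36 genes and raised 0 (median -0.24; background 23% lower and 20.9% higher). All 24 structural genes and 4 assembly genes were among the 28. The largest changes were -0.58 for Cox5a, -0.51 for Uqcrb, -0.46 for Cox7a2l and -0.42 for Cyc1. Cycs changed by -0.32, Sdhd by -0.24 and Sdhc by -0.19. Cox10 changed by -0.19 (adjusted p = 0.037), a call lost without any of several single libraries, and Cox15 by 0.15, which was not called. The mean fell in the order Vehicle, SA, HASA for 26 of the 36 genes, and the share of all genes with this order was not counted. This comparison and that of SA share the Vehicle libraries. With the HA libraries as the reference, 29 genes were called lower and 1 higher with HASA (median -0.29; background 22.4% and 20.4%). The largest falls were -0.65 for Cox5a, -0.50 for Cyc1, -0.50 for Uqcrb and -0.49 for Cox17, and Cycs (-0.48), Cox10 (-0.36), Sdhd (-0.24) and Sdhc (-0.20) were called lower. The rise was that of Cox15 (0.20, adjusted p = 0.033), a call lost without HA library 2 or HASA library 2 or 3, among others.

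**Figure D4:**
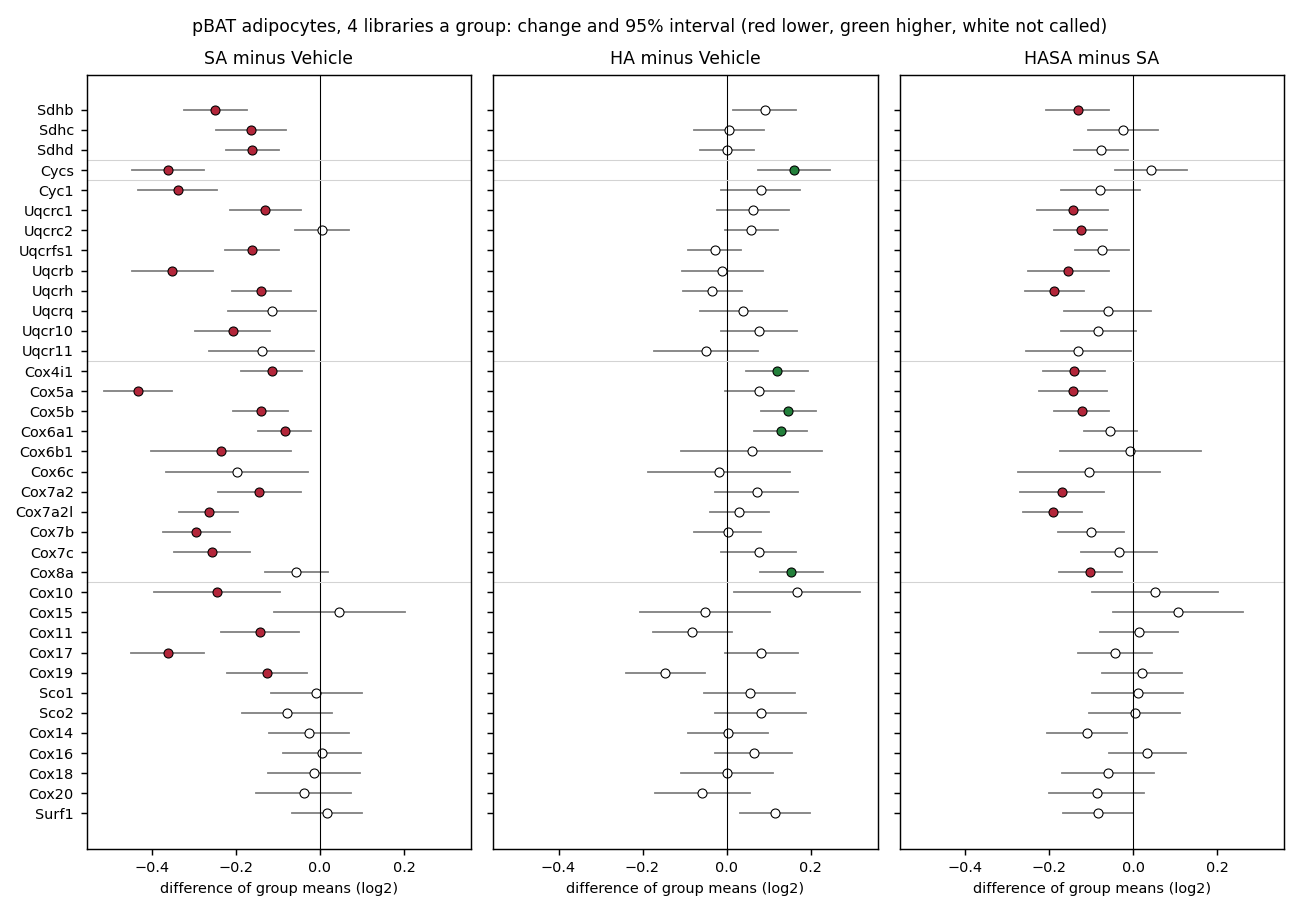
Log2 change of each of the 36 genes (horizontal axis) with its 95% interval for SA minus Vehicle, HA minus Vehicle and HASA minus SA, ordered by role. Red marks a gene called lower, green higher and white not called, giving 23, 0 and 11 red points and 0, 5 and 0 green points.

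The interaction term tests whether SA changed the genes by a different amount in cells that also had HA. It was called negative for 11 of the 36 genes and positive for 0 (median -0.11), against 3.79% of all genes called negative and 3.88% positive. Complex IV subunits made up 7 of the 11, led by Cox5b (-0.27, SE 0.044, adjusted p = 0.0013), Cox4i1 (-0.26), Cox8a (-0.26) and Cox7a2 (-0.24). The others were Sdhb, 2 complex III genes and Surf1. For Cox5b the libraries stood at 12.99, 13.06, 13.11 and 12.99 with SA and at 12.92, 12.90, 12.92 and 12.92 with HASA, so SA lowered it more where HA was present. For Sdhc, Sdhd, Cyc1, Cycs, Cox10 and Cox15 the term was not called, and that of Cox15 was 0.16. The interaction shares its libraries with the comparisons above, and under quantile normalization the count was 6.

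The third experiment asked what the loss of Alas1 does in brown fat. Alas1, the deleted gene, stood at 12.79, 12.90, 12.72 and 12.97 in the WT libraries and at 10.14, 10.18, 10.45 and 10.61 in the BAKO libraries, a log2 change of -2.50 (SE 0.113, adjusted p = 1.3e-05). The groups did not overlap. Of the 36 respiratory genes, 0 were called by limma in either direction and 1 (Cox19) had an unadjusted p under 0.05, and over all 13497 genes 0.0519% were called higher and 0.0593% lower. Changes ran from -0.28 to 0.07, with a median of -0.11, against 0.0012 over all genes tested. The median interval reached 0.25 on each side, and the lower bound lay above -0.5 for 34 of the 36 genes.

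The heme genes overlapped between genotypes. Cycs stood at 14.41, 14.16, 14.09 and 14.07 in WT and at 14.48, 14.28, 13.98 and 14.10 in BAKO fat, a change of 0.02. Cyc1 stood at 15.06, 15.08, 14.97 and 15.13 in WT and at 14.91, 15.16, 15.01 and 14.76 in BAKO fat, a change of -0.10. Sdhd stood at 14.48, 14.20, 14.14 and 14.17 in WT and at 14.38, 14.35, 14.06 and 13.75 in BAKO fat, a change of -0.11. For each of the 3 genes the BAKO libraries spread to both sides of WT libraries, and none of the changes was called. Sdhc changed by -0.03. Cox10, the first step of heme A synthesis, stood at 9.69, 10.14, 10.14 and 10.21 in WT and at 9.72, 9.88, 9.75 and 9.97 in BAKO fat. All 4 BAKO values lay below 3 of the WT values, and the change of -0.22 (CI -0.49 to 0.06) was not called. Cox15 changed by -0.17, which was not called. Cox19, a small copper-binding protein, had the lowest adjusted p of the 36, at 0.499 with limma, for a change of -0.28. Its libraries stood at 10.86, 11.24, 11.06 and 10.74 in WT and at 10.74, 10.56, 10.79 and 10.69 in BAKO fat.

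The tissue libraries differed in skeletal muscle genes. Summed muscle markers were 8.71, 8.68, 12.36 and 8.71 in WT libraries 1, 3, 4 and 5 and 8.61, 8.59, 16.6 and 10.39 in BAKO libraries 1, 2, 3 and 5. The median log2 value of the 36 genes was 13.84, 13.69, 13.52 and 13.58 in the same WT libraries and 13.71, 13.65, 13.4 and 13.32 in the BAKO libraries. The libraries with raised muscle markers thus had the lowest medians of their group, but differed in other markers too. Summed brown adipocyte markers ran from 16.92 in BAKO 3 to 17.42 in BAKO 1. They were lower in BAKO 3 and BAKO 5 than in BAKO 1 and BAKO 2. In WT they ran from 17.25 in WT 4 to 17.43 in WT 1, in the order of the medians. BAKO 5, with the lowest median, had the highest macrophage (12.29), fibroblast (13.49) and endothelial (14.26) sums of all tissue libraries. Among WT libraries these sums were highest in WT 5, which had a median of 13.58. Without BAKO 3 and BAKO 5 the median change of the 36 genes was 0.02 with 0 called, and without WT 4 as well it was -0.01 with 0 called. Leaving libraries out cannot tell these markers apart, since the libraries left out differed in several of them. Summed adipocyte markers were 17.9 to 18.11 in WT and 17.58 to 17.83 in BAKO libraries. The part of each of these marker lists in the result was not tested. Cox6a2, the muscle form of a complex IV subunit, stood at 4.81, 4.91, 5.45 and 4.87 in WT and at 5.99, 5.26, 7.94 and 6.29 in BAKO fat. Its difference from Cox6a1 changed by 1.56 (exact two-sided permutation p = 0.0571, adjusted p = 0.152 over the 8 tests), and by 0.70 without BAKO 3 and BAKO 5.

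**Figure D5:**
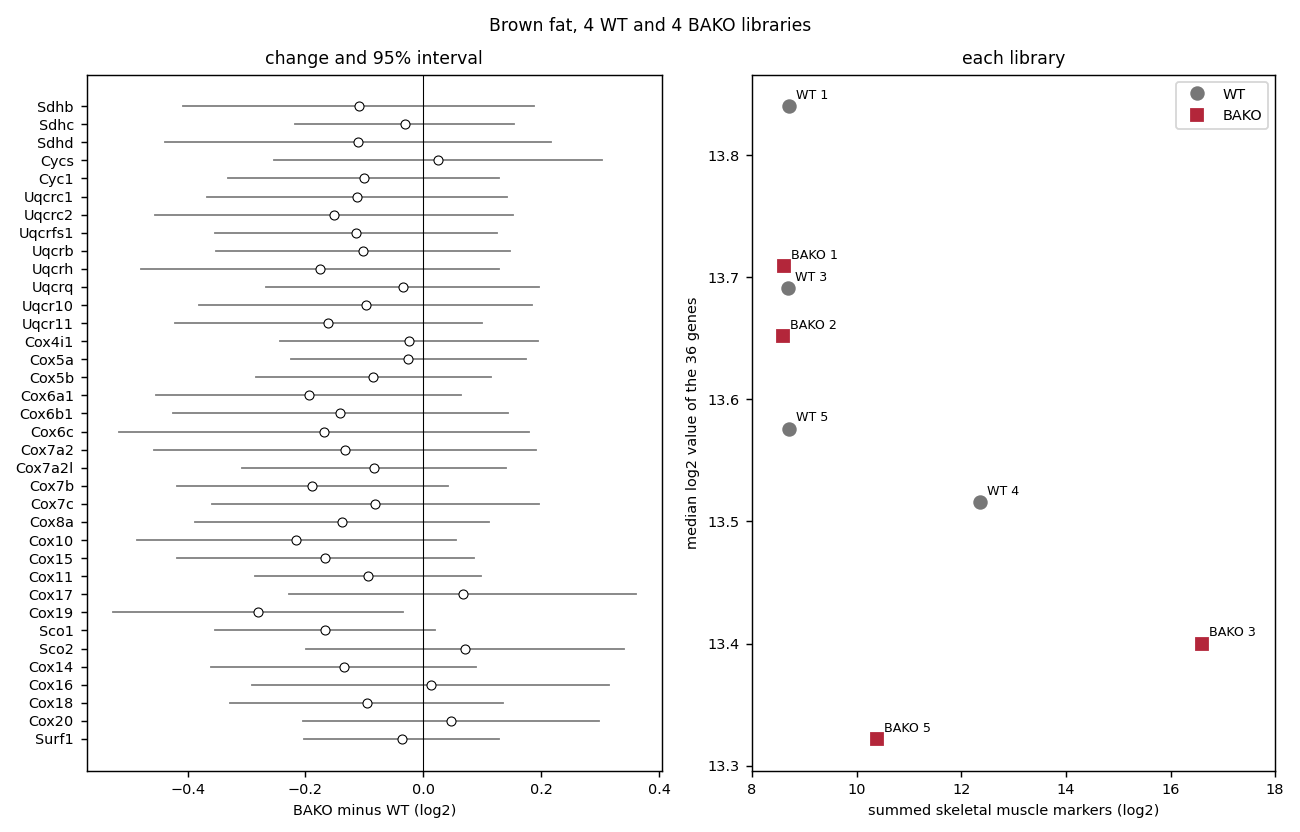
Left, log2 change of each of the 36 genes, BAKO minus WT, with its 95% interval; all points are white, none being called. Right, the median log2 value of the 36 genes (vertical axis) against the summed skeletal muscle markers (horizontal axis) in each of the 8 libraries; BAKO 3 lies farthest to the right, at 16.6.

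Neighboring lists gave no calls either in BAKO fat. Complex I subunits had 0 of 36 called, with a median change of -0.03, and 0 genes were called in the lists of further complex II to IV genes, ATP synthase subunits and mitochondrially encoded genes. The differences Cox7a1 minus Cox7a2 and Cox8b minus Cox8a changed by 0.12 and 0.17 (exact permutation p = 0.429 and 0.0857), and Cox4i2 minus Cox4i1 by 0.0041 (p = 1).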

How the data were processed

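Per the submitters' processing notes, kallisto, DESeq2 and GRCm39 were used; their versions were not given in the sources used here. The values deposited by the authors are log2 values in 5 tables, under file names that speak of raw counts; they run from -1.96 to 21.28. The base 2 was inferred from the sums of linear values, and fold changes of low genes may be understated. Per the labels, the cell libraries were stranded mRNA libraries and the tissue libraries were made with poly-T beads.

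Since log2 values do not suit the count model planned, limma 3.58.1 in R 4.3.3 was used with a mean for each group of a table, a mean-variance trend and Benjamini-Hochberg adjustment over the genes with a highest group mean of at least 4 (12462 to 13497). Code was tested on simulated data. Python 3.11.15 with pandas 2.3.3 and matplotlib 3.10.9 did the rest. Symbols came from GENCODE M21 (99.63 to 99.77% of identifiers matched), and promoters from RefSeq. Protein sequences were not used here.

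There were 19 comparisons. The members and lists were chosen with earlier results of these data known. Named in each comparison were Sdhc, Sdhd, Cyc1, Cycs, Cox10 and Cox15, the called members with the largest changes (up to 4 each way), and members whose call was lost without 1 library. Other members were named to complete counts of at most 5 or to list those not called, chosen with their values seen. Deviations of same-numbered libraries correlated at -0.176 to 0.21 in the cell tables and at -0.02 to 0.48 over 3 pairs in the tissue table, whose libraries come from separate animals, and the numbers were not taken as pairs. The alternatives were other filters, no trend, median centring, quantile normalization, a replicate block and leaving out each library. Cycs and Uqcrh each have 2 named pseudogenes, and exons of Cox16 and Cox17 overlap another gene on the same strand, so reads may be shared. Exons of Cox11, Cox15, Surf1, Uqcrb and Uqcrc2 overlap a gene on the other strand. Since the strand setting of the counting is not stated, their reads may be shared too.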

Additional observations from a re-analysis of the deposited data

Results flagged for a closer look

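In 2 of 90 groups of 4 libraries that were examined (15 genes), 1 library stood far from the other 3. Chance gives about 1 in 20. Cox10 in WT library 1 of the brown fat had a log2 value of 9.685, while the other 3 WT libraries lay between 10.143 and 10.205. Cox7a2 in SA library 3 had a log2 value of 12.315, while the other SA libraries lay between 12.101 and 12.136.

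The effect of SA differed between cells with and without HA for 11 genes, by the interaction term of limma. On the log2 scale it was -0.2229 for Sdhb, the iron-sulfur subunit of complex II. In complex III it was -0.2069 for Uqcrc1 and -0.1842 for Uqcrc2. In complex IV it was -0.2604 for Cox4i1, -0.2218 for Cox5a, -0.2691 for Cox5b, -0.1828 for Cox6a1, -0.2408 for Cox7a2, -0.2223 for Cox7a2l and -0.2567 for Cox8a. It was -0.1993 for the assembly factor Surf1.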

How the results depend on the processing

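No change that was called reversed its sign under an alternative. Values near 0 that were not called did: the median change of the 36 genes in BAKO fat went from -0.11 to 0.02 without BAKO 3 and BAKO 5, and Cox4i2 minus Cox4i1 there went from 0.0041 to -0.17 with quantile normalization. The count of the 36 genes called stayed within 1.5 times the reported one in every comparison and alternative but 5. For HA against Vehicle the count went from 5 to 3 with quantile normalization, and from 2 to 6 when single libraries were left out. For the interaction it went from 11 to 6 with quantile normalization. For SA against Vehicle the count ran from 18 to 24 when single libraries were left out, and the calls lost were among Cox4i1, Cox6a1, Cox6b1, Cox7a2, Cox19 and Uqcrc1. With a replicate block, SA gave 24 and the interaction 10, HASA against SA 12, HA against Vehicle 6 and BAKO against WT 0, and the block moved no count of the 36 genes by over 1.5 times.

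Over all genes, 1148 were called for HA against Vehicle, and 694 to 767 without HA 2, Vehicle 1 or HA 4. For BAKO against WT 15 were called, of which 46.7% were higher, and the count fell to 3 with the replicate block and to 1 without any of 5 single libraries. Quantile normalization moved the median day 6 change of all genes from 0.0037 to -0.1241 in pWAT cells and from 0.0291 to -0.0928 in B9 cells. The setting without BAKO 3, BAKO 5 and WT 4 was chosen after the data were seen.

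Calls lost without 1 library, besides those of SA, were as follows. From day 0 to 6 they were Sco1 in B9, Cox18 in pBAT and Cox7a2l in pWAT cells, from day 0 to 2 Cox10 in B9, Cox18 in pBAT and Uqcrc1, Cox7c, Cox5a and Cox16 in pWAT cells, and from day 2 to 4 Surf1 and Cox7a2l in B9, Sco1 in pBAT and Cox7c, Cox15, Cox6c and Cox17 in pWAT cells. From day 4 to 6 they were Uqcrq, Uqcr10, Cox7a2l and Cox5a in B9, Surf1, Sco1, Cox20 and Sdhb in pBAT and Sdhc and Cox7c in pWAT cells. In the second experiment they were Cycs, Cox4i1 and Cox6a1 for HA, Cox8a, Uqcrc1 and Uqcrb for HASA against SA, Cox6b1, Cox10, Cox11 and Cox14 for HASA against Vehicle, Cox15, Cox14 and Sco2 for HASA against HA, and Uqcrc1, Cox7a2 and Surf1 for the interaction.

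No detection limit is given, as read depth is unknown. The cell types were normalized apart, so differences between them were not tested.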
